A study of Mus musculus with 13 samples.

Results

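H3K4me3 in oligodendrocyte precursor cells (OPCs) was compared with H3K4me3 in newly formed oligodendrocytes (NFOs), the next stage of the lineage. The comparison used every peak listed for either stage, 18284 in OPCs and 21736 in NFOs, which made 40020 of the 175781 peaks in the 8 ChIP-Seq lists of the series. The readings taken were: which peaks of one stage were overlapped by at least 1 bp in the other, and how many bp within 2 kb of each gene's transcription start site (TSS) lay under peaks in each stage. Both cell types came from brains of untreated C57BL/6 mice at postnatal day 7, about equally male and female, by immunopanning. In that procedure microglia and endothelial cells are first removed on BSL-1 plates, OPCs are then caught on plates with an antibody to PDGFRα, and NFOs are caught from the remaining cells on plates with an antibody to GalC. Each stage was 1 library, so no difference below was tested against a spread between replicates, and the intervals given cover counting error alone. The neural stem cells (NSCs) used for reference were cultured from embryonic cortex, so they differ from the other cells in age and culture as well as in stage. Their strain was CD-1 by the growth protocol and C57BL/6 by the strain label, so they may differ in strain too.

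H3K4me3 is the trimethylation of lysine 4 on histone H3. It is laid down around the start sites of genes that are transcribed or ready to be transcribed, most of all where CpG dinucleotides are dense, and it may spread over several kb at genes that define a cell's identity. H3K27me3, placed by the Polycomb complex, marks silent developmental genes, and some promoters carry both marks. OPCs divide and carry the PDGF receptor and the NG2 proteoglycan, whereas NFOs have left the cell cycle and begin to make myelin lipids and proteins.

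The sample titles and the peak names assigned the libraries to H3K4me3, whereas the antibody field of the labels named H3K27me3. The peaks went with the titles, since 72.7% of them in OPCs and 44.4% in NFOs lay within 1 kb of a TSS, against 13.4% and 20.0% in the lists titled H3K27me3. The markers of the cell types did not separate the stages. Among the OPC markers, Pdgfra, Ptprz1, Lhfpl3 and C1ql1 were covered in both stages and Cspg4 in OPCs alone. Among the oligodendrocyte markers, Mog, Mag, Enpp6 and Bcas1 were at 0 bp in both stages, Mbp and Myrf were covered in OPCs alone, and Cnp was covered over 1541 bp in OPCs and 212 bp in NFOs. None of these oligodendrocyte markers was covered in NFOs alone.

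The 8 stretches below show the sequence behind the comparison, all in mm10 and written 5′ to 3′ along the gene's strand, with CpG dinucleotides in capitals. The 250 bases upstream of the TSS are shown for Pdgfra (chr5:75152042-75152291, plus strand), under a peak in both stages; for Cspg4 (chr9:56864783-56865032, plus), Mex3b (chr7:82867083-82867332, plus) and Foxo3 (chr10:42276756-42277005, minus), under a peak in OPCs alone; and for Hoxc6 (chr15:102998007-102998256, plus), under a peak in NFOs alone. The middle 250 bases of the NFO peak are shown for Mpped2 (chr2:106694441-106694690, plus), the strongest peak in either stage, and for the NFO-only peaks at Gjc3 (chr5:137961956-137962205, minus) and 9630013A20Rik (chr14:84475534-84475783, minus).
Pdgfra: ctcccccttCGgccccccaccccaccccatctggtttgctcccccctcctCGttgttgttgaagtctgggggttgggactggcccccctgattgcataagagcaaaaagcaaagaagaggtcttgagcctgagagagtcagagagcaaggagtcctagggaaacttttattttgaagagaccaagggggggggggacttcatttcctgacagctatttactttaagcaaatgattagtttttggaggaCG
Cspg4: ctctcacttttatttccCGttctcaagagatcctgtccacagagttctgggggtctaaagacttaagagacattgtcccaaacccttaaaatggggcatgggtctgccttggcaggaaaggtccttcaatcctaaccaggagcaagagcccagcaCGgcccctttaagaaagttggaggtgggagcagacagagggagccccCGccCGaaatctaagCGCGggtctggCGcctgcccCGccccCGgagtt
Mex3b: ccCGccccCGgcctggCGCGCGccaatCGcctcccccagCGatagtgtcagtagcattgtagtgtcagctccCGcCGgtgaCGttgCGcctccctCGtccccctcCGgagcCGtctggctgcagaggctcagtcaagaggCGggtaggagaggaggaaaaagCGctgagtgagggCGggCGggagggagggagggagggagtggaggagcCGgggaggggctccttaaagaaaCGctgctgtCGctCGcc
Foxo3: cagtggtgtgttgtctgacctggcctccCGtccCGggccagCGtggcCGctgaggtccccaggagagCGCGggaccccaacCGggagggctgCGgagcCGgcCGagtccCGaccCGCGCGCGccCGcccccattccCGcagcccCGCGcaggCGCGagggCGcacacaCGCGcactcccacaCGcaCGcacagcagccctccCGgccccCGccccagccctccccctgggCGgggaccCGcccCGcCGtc
Hoxc6: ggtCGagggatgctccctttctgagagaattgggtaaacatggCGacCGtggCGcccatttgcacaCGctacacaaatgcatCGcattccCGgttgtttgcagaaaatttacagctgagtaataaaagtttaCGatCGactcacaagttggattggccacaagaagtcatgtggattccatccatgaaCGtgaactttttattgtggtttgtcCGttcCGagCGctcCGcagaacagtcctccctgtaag
Mpped2 NFO peak: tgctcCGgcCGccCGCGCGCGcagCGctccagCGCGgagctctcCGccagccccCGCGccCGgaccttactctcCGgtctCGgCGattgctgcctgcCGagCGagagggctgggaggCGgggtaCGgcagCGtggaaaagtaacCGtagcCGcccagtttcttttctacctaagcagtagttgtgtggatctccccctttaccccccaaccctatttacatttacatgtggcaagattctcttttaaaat
Gjc3 NFO peak: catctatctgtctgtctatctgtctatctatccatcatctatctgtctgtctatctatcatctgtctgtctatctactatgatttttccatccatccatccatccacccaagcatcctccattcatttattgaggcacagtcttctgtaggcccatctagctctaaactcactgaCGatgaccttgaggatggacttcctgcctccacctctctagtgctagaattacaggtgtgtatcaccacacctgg
9630013A20Rik NFO peak: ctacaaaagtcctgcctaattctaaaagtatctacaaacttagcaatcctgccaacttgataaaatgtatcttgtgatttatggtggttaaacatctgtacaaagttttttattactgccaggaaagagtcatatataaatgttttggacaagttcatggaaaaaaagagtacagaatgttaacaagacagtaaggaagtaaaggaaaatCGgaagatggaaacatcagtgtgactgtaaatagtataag
The stretches held 3 CpGs at Pdgfra, 9 at Cspg4, 22 at Mex3b, 32 at Foxo3, 14 at Hoxc6 and 23 at Mpped2, against 1 each at Gjc3 and 9630013A20Rik. Over all genes, the 250 bases upstream of the TSS held a median of 16 CpGs at genes covered in both stages, 13 at genes covered in OPCs alone, 4 at genes covered in NFOs alone and 2 at genes covered in neither.

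H3K4me3 in NFOs covered less of the genome in more and narrower pieces. OPC peaks covered 21.4 Mb with a median width of 987 bp, and NFO peaks covered 10.6 Mb with a median width of 256 bp. Peaks under 250 bp made 48.6% of the NFO list and 16.5% of the OPC list, and 271 OPC peaks but 21 NFO peaks were wider than 4 kb. Of the OPC peaks, 10385 of 18284 (56.8%, exact binomial 95% interval 56.1 to 57.5) were overlapped by an NFO peak. Of the NFO peaks, 11619 of 21736 (53.5%, 52.8 to 54.1) were overlapped by an OPC peak. Counted by bp, 6.92 Mb were covered in both stages, which was 32.3% of the OPC bp and 65.6% of the NFO bp. Within the OPC peaks that had an NFO peak, a median of 45.9% of the bp was covered in NFOs, and 24.9% of these peaks were covered over at least 80% of their length.

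Whether an OPC peak was found again in NFOs went with its strength. Fold enrichment is the ratio of ChIP to input signal that the peak caller gave for the whole peak. Of the OPC peaks with a fold enrichment of at most 4, 21.4% (20.0 to 22.9) were overlapped in NFOs. The share was 31.4% from 4 to 5, 51.2% from 5 to 6, 74.8% from 6 to 8, 92.8% from 8 to 10 and 99.5% (98.9 to 99.8, 1449 of 1457 peaks) above 10. NFO peaks gave the same order, from 33.0% at a fold enrichment of at most 4 to 98.0% above 10. Width ran alongside strength: 31.2% of OPC peaks of at most 250 bp and 97.0% of those over 4 kb (263 of 271) were overlapped in NFOs. The wide domains were thus nearly all present in both lists, but a median of 43.2% of their bp was covered in NFOs.

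**Figure D1:**
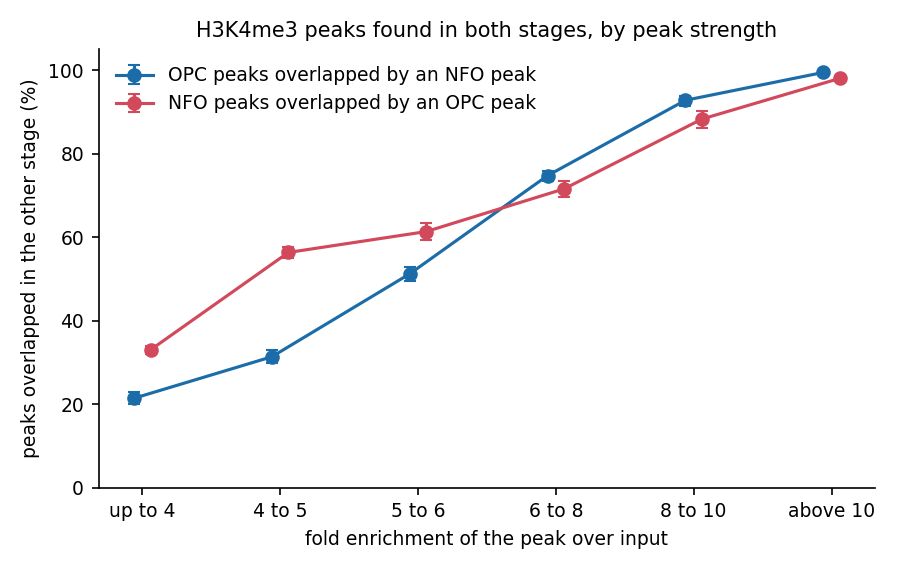
Share of peaks overlapped by at least 1 bp in the other stage (y axis, %) by the peak's fold enrichment over input (x axis), for OPC peaks (blue) and NFO peaks (red), with exact 95% binomial intervals. The share in OPC peaks runs from 21.4% to 99.5% and in NFO peaks from 33.0% to 98.0%.

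The strongest NFO peaks were narrow. Above a fold enrichment of 10, the median width was 361 bp over 2078 NFO peaks and 1301 bp over 1457 OPC peaks. In OPCs the median width was 269 bp at a fold enrichment of at most 4 and reached 1486 bp from 8 to 10, and in NSCs it went from 242 bp to 2502 bp above 10. In NFOs it stayed between 221 and 361 bp across all 6 classes of strength. Above a fold enrichment of 20 there were 304 NFO peaks with a median width of 360 bp and 79 OPC peaks with one of 730 bp. The strongest OPC peaks were thus narrower than those from 8 to 10. Of these 304 NFO peaks, 92.8% lay within 1 kb of a TSS. The −log10 p of a peak, which depends on read number as well as on enrichment, had a median of 9.21 in NFOs and 6.86 in OPCs for peaks with a fold enrichment between 4.75 and 5.25. Read depth was not given in the files used here, so the part of depth, fragment length and peak joining in these widths was not tested.

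**Figure D2:**
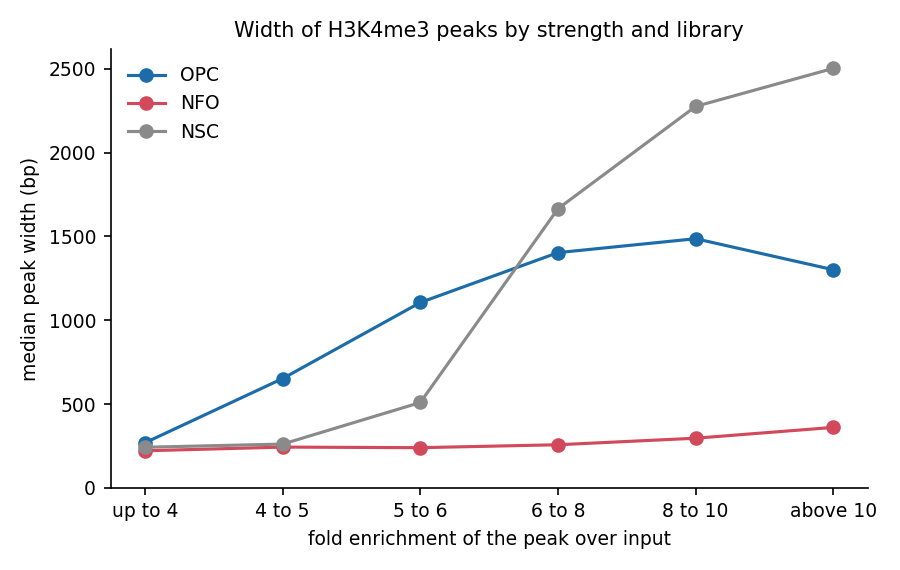
Median peak width (y axis, bp) by fold enrichment over input (x axis) in the H3K4me3 lists of OPCs (blue), NFOs (red) and NSCs (grey). The OPC median climbs to 1486 bp from 8 to 10 and is 1301 bp above 10, and the NSC median climbs to 2502 bp. The NFO medians stay between 221 and 361 bp.

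The peaks listed in one stage alone differed in kind between the stages. The 7899 OPC-only peaks had a median width of 612 bp and a median fold enrichment of 4.57, and 62.2% lay within 1 kb of a TSS. The 10117 NFO-only peaks had a median width of 204 bp and a median fold enrichment of 3.63, and 7.18% (6.68 to 7.70) lay within 1 kb of a TSS, with 58.2% intergenic and 24.8% in gene bodies. By contrast, 80.6% of shared OPC peaks and 76.8% of shared NFO peaks were within 1 kb of a TSS. The NSC list, which took no part in the choice, held 69.3% of the OPC-only peaks and 23.0% of the NFO-only peaks, against 92.4% of the shared OPC peaks and 92.4% of the shared NFO peaks. Sequence separated them as well. Of the bp under NFO-only peaks 53.2% were repeat-masked in the reference genome and 20.3% of these peaks were masked along their whole length, and their median GC content was 40.0% with a CpG observed-to-expected ratio of 0.158. OPC-only peaks had 10.9% of bp masked, a median GC content of 56.6% and a ratio of 0.612, close to the shared OPC peaks with 12.6%, 54.5% and 0.672. OLIG2 peaks of NFOs overlapped 8.95% of shared OPC peaks, 1.18% of OPC-only peaks and 4.36% of NFO-only peaks.

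At the TSSs of 35312 GENCODE genes (21938 protein-coding genes and 13374 long noncoding RNAs), 10255 genes were covered in both stages (kept), 5000 in OPCs alone (lost), 489 in NFOs alone (gained) and 19568 in neither. Lost genes were 32.8% of the 15255 genes covered in OPCs, and gained genes were 2.44% of the 20057 genes at 0 bp in OPCs. Among protein-coding genes the counts were 8524 kept, 4106 lost and 281 gained, and among long noncoding RNAs 1731, 894 and 208. A median kept gene had 1553 bp under peaks in OPCs (quartiles 1103 and 2065) and 606 bp in NFOs (284 and 1039), a median difference of -821 bp (95% interval of the median -841 to -803). Of the kept genes, 9470 had fewer bp in NFOs and 731 had more. Fold enrichment did not follow the bp: 3116 kept genes (30.4%) had a higher fold enrichment in NFOs, and 2918 of these had fewer bp there. The median log2 ratio of fold enrichment, NFO over OPC, was -0.36. Each value is taken over its whole peak, so wide OPC peaks and narrow NFO peaks were not measured on the same stretch.

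Taken over all kept genes, coverage was placed alike around the TSS in both stages, but fewer genes were covered at each position in NFOs. Every kept gene has a peak in its window in both stages by definition. At kept genes, coverage in OPCs was most frequent 200 bp downstream of the TSS, where 87.7% of genes had a peak, and in NFOs 300 bp downstream, where 38.0% had one. Coverage stayed above 50% of its highest share from 550 bp upstream to 1050 bp downstream in OPCs and from 600 bp upstream to 1150 bp downstream in NFOs. At lost genes the OPC share was highest at the same distance of 200 bp, with 74.1% of genes, and the NSC share there was 82.5%. Gained genes had no such crest: the NFO share was highest 200 bp upstream of the TSS, at 11.5% of genes.

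**Figure D3:**
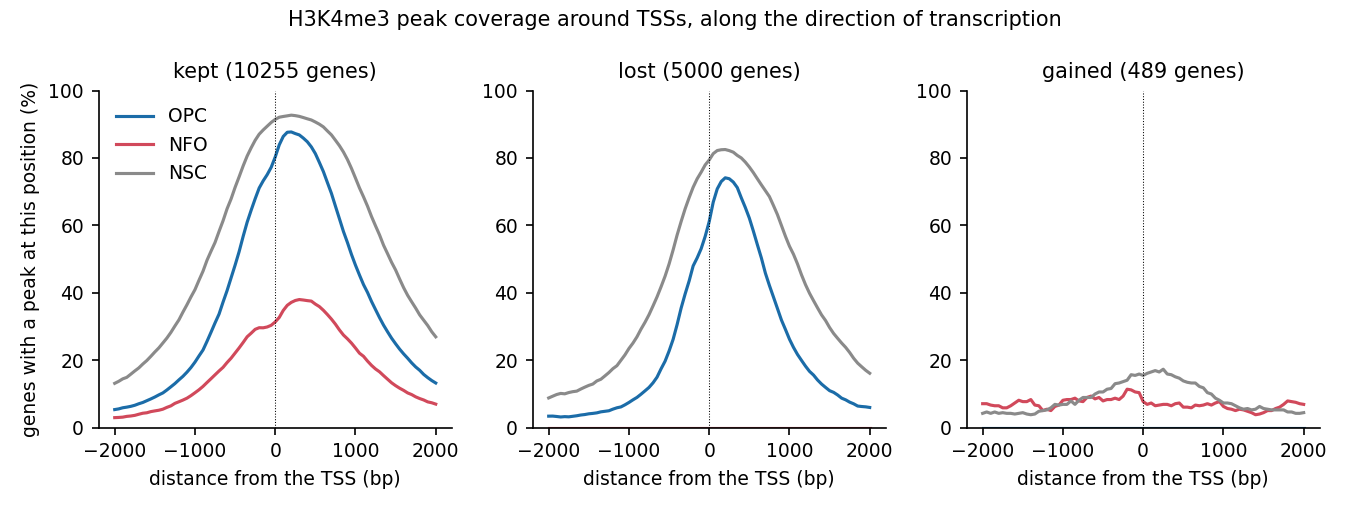
Percent of genes with an H3K4me3 peak (y axis) at each distance from the TSS (x axis, bp, in the direction of transcription) in OPCs (blue), NFOs (red) and NSCs (grey), for kept, lost and gained genes. At kept genes the OPC curve reaches 87.7% and the NFO curve 38.0%, both just downstream of the TSS, and at gained genes the NFO curve is flat and at most 11.5%.

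Loss at TSSs went with the fold enrichment in OPCs as it did for peaks. Of the genes whose strongest OPC peak had a fold enrichment of at most 4, 75.03% were lost (583 of 777), and the share was 66.3% from 4 to 5, 45.9% from 5 to 6, 23.7% from 6 to 8, 7.04% from 8 to 10 and 1.38% (20 of 1453 genes) above 10. The median OPC fold enrichment was 5.25 at lost genes and 7.14 at kept genes. Lost promoters were nonetheless mostly CpG-rich, 61.8% against 74.8% of kept genes (GC above 50% and CpG observed-to-expected above 0.6 in the 500 bp on either side), and 94.0% had an NSC H3K4me3 peak in the window, against 98.7% of kept genes. These shares were 11.4% and 41.7% at gained genes and 2.45% and 7.73% at genes in neither class. H3K27me3 in NFOs was listed at 600 of 5000 lost genes, 866 of 10255 kept genes (8.44%), 132 of 489 gained genes and 886 of 19568 other genes (4.53%), and 113 of the 5000 lost genes (2.26%) had H3K27me3 in NFOs without having it in OPCs.

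The 10 protein-coding genes with the most bp in OPCs among those at 0 bp in NFOs were Mex3b, H2-DMa, Hist1h2ad, Hist1h2bf, Foxo3, Setd5, Kif26b, Hist1h2bc, Hist1h2ac and Fbxl15. Mex3b, an RNA-binding protein gene, was covered over all 4001 bp of its window in OPCs by a single peak of 4787 bp with a fold enrichment of 6.15, and had no NFO peak. Foxo3, a transcription factor gene of the insulin and growth factor pathway, went from 3831 bp to 0 bp, and Setd5, a chromatin regulator, from 3811 bp to 0 bp. Kif26b, a kinesin-like gene, had 3784 bp in OPCs, and Fbxl15, an F-box gene, had 3395 bp. H2-DMa, which loads peptides on MHC class II, had 4001 bp at this TSS in OPCs and 0 bp in NFOs, but 1573 bp in NFOs when the start sites of all its transcripts were used. The fold enrichments of the 10 genes in OPCs lay between 5.26 and 6.15, below the median of kept genes, and all 10 had between 3298 and 4001 bp in NSCs. In all, 334 lost genes had 2000 bp or more in OPCs, and 300 lost genes were covered in NFOs at another of their own start sites.

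Hist1h2ad, Hist1h2bf, Hist1h2bc and Hist1h2ac are replication-dependent histone genes, which sit in clusters and supply histones in S phase. They formed 2 neighbouring pairs that shared a peak: Hist1h2ad and Hist1h2bf lay under 1 OPC peak of 5601 bp, and Hist1h2bc and Hist1h2ac under another. A list of all 67 such genes, drawn up after these values were seen, held 38 kept, 26 lost and 3 uncovered genes, so 40.6% (28.5 to 53.6) of the 64 covered in OPCs were lost, beside 32.8% of all genes. Their median OPC fold enrichment was 5.74, a class in which 45.9% of all genes were lost. The 26 lost genes were not independent, as neighbours shared peaks.

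The 10 protein-coding genes with the most bp in NFOs among those at 0 bp in OPCs were Hoxc6, Gm28230, Gm8024, Isl2, Zscan4d, Dppa1, Chst5, Evx1, Gjc3 and Bmp4. The gains were small beside the losses: Hoxc6, the largest, had 1181 bp in NFOs at a fold enrichment of 3.77, and Bmp4, the tenth, 828 bp at 5.49. Hoxc6, Isl2 and Evx1 encode homeobox transcription factors of axial and spinal cord patterning. All 3, with Gm28230 and Bmp4, lay in wide H3K27me3 in OPCs, between 3125 and 4001 bp of the window. In NFOs their H3K27me3 covered 3749 bp at Hoxc6, 3173 bp at Isl2, 2464 bp at Evx1, 2343 bp at Gm28230 and 1132 bp at Bmp4, against 3932 bp in OPCs at Bmp4. Zscan4d and Dppa1 are known from early embryos, and together with Gm8024, Chst5 and Gjc3 they had no H3K27me3 in either stage. Gm8024 had 1007 bp, Zscan4d 906 bp, Dppa1 874 bp and Chst5 860 bp in NFOs. Zscan4d belongs to a multicopy gene family, and whether its copies share reads was not tested.

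Gjc3, which encodes the connexin 29 gap junction protein of myelinating glia, was at 0 bp in OPCs and in NSCs and had 840 bp in NFOs under 1 peak with a fold enrichment of 4.69. That peak lay downstream of the TSS within the window. Bmp4, a secreted signal that holds back oligodendrocyte maturation in culture, was at 0 bp in OPCs at the 5′-most start site, but had 1465 bp in OPCs and 1145 bp in NFOs over the start sites of all transcripts, so its gain depended on which start site was taken. Isl2 likewise had 658 bp in OPCs over all its start sites, and 934 bp in NFOs. In all, 31 of the 489 gained genes were covered in OPCs at another start site. Most gains were thin: 357 of the 489 (73.0%) had under 250 bp in NFOs and 64 had 500 bp or more. Of the 489, 181 had H3K27me3 in OPCs, and 132 of these (72.9%) had fewer H3K27me3 bp in NFOs, whereas 79.6% of all 4219 genes with H3K27me3 in OPCs had fewer in NFOs.

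Genes of OPC identity mostly kept the mark over a shorter stretch. Of 20 listed genes, 15 were kept, 2 were lost and 3 were covered in neither stage, so 2 of the 17 covered in OPCs (11.8%, 1.46 to 36.4) were lost, beside 32.8% of all genes. Their median OPC fold enrichment was 7.35, in the class from 6 to 8 in which 23.7% of all genes were lost. Both 32.8% and 23.7% lay inside the interval. None of the 15 kept genes had more bp in NFOs. Pdgfra, the receptor for the mitogen PDGF, had 2904 bp in OPCs and 1972 bp in NFOs around its annotated start, and 8047 bp and 3776 bp over the start sites of all its transcripts. Its fold enrichment was 8.63 in OPCs and 8.23 in NFOs. The Pdgfra domain was therefore present in both stages and shorter in NFOs. Cspg4, which encodes the NG2 proteoglycan, had 2679 bp at a fold enrichment of 5.78 in OPCs and none in NFOs. Cspg5, another chondroitin sulfate proteoglycan, had 1321 bp in OPCs and none in NFOs at its first start site, but 447 bp in NFOs over all of them.

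Cell surface and matrix genes of OPCs spanned the whole range of change. Ptprz1, a receptor phosphatase, had 2632 bp in OPCs and 2630 bp in NFOs, and its fold enrichment was 8.61 and 10.5. Lhfpl3 had 3036 and 2620 bp. Within the window both were covered almost to the same extent, but the peaks ran beyond it and were wider in OPCs, with 4539 bp in OPCs and 2636 bp in NFOs at Ptprz1 and 6332 and 3734 bp at Lhfpl3. Bcan, which encodes the matrix proteoglycan brevican, had 3175 and 260 bp, the largest difference in the list, although its fold enrichment was 6.14 and 6.56. Pcdh15, a protocadherin, had 2965 and 435 bp, and Vcan, which encodes versican, 2173 and 885 bp. Cacng4, an AMPA receptor auxiliary subunit, had 2436 and 1346 bp, and C1ql1, a secreted C1q-like protein, 1688 and 539 bp. Xylt1, which starts glycosaminoglycan chains, had 2486 and 1075 bp. Rlbp1, a retinoid-binding protein, had 1624 and 204 bp and Tmem100 2103 and 677 bp, with a higher fold enrichment in NFOs at both (4.87 and 7.73, 10.1 and 14.2). Matn4, Neu4 and Lnx1 had no peak at their first start site, and Lnx1 had 2166 bp in OPCs and 186 bp in NFOs over all its start sites.

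Transcription factors that hold OPCs in place were kept. Sox6 was covered over the full 4001 bp in OPCs and 1741 bp in NFOs, and over all start sites 11115 and 5445 bp. Sox5 had 1706 and 300 bp, and over all start sites 4399 and 2704 bp. Hes5, an effector of Notch, had 1993 and 101 bp, and 2041 and 149 bp over all start sites. The 101 bp came from an NFO peak of 192 bp that lay downstream of the gene and crossed the window's edge. Hes5 thus counted as kept without an NFO peak at its start.

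Genes that drive differentiation were covered about as often in NFOs as in OPCs. Of 20 listed genes, 14 were kept, 2 were lost, 1 was gained and 3 were covered in neither stage. The lost genes were 2 of the 16 covered in OPCs (12.5%, 1.55 to 38.3), beside 32.8% of all genes. The list's median OPC fold enrichment was 6.96, in the class from 6 to 8 in which 23.7% of all genes were lost. Both shares lay inside the interval. Of all genes at 0 bp in OPCs, 2.44% were gained. The summed coverage of the 20 genes in NFOs was 53.9% of that in OPCs, against 40.2% for OPC identity, 17.4% for myelin and 35.9% over all genes. Zfp488, a zinc finger co-regulator of oligodendrocyte differentiation, had 1749 bp in OPCs and 1832 bp in NFOs, and Sema4d, a semaphorin of oligodendrocytes, 868 and 948 bp. These were the 2 genes of the list with more bp in NFOs among those kept, and in both the fold enrichment was lower in NFOs (10.6 and 7.01, 7.06 and 4.10). Gpr17, a receptor that marks the step between OPC and oligodendrocyte, had 1991 and 1925 bp in the window and was at 0 bp in NSCs. Its OPC peak ran on beyond the window and was 7223 bp wide, against 2066 bp for the NFO peak.

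The core factors of the lineage were covered in both stages. Olig2 had 4001 bp in OPCs and 2326 bp in NFOs, Olig1 2070 and 1035 bp, and Nkx2-2 2614 and 1066 bp. Yy1, a zinc finger factor, had 3860 and 3015 bp. Sox10, which is needed for terminal differentiation, had 1319 and 379 bp, while its fold enrichment was 8.88 in OPCs and 19.2 in NFOs. Tcf7l2, a Wnt effector that is transiently high as oligodendrocytes form, had 2485 and 1243 bp with fold enrichments of 11.4 and 17.0. Sox10 and Tcf7l2 were the 2 kept genes of the list with a higher fold enrichment in NFOs. The peaks that gave these values were 6336 bp wide in OPCs and 379 bp in NFOs at Sox10, and 4098 and 700 bp at Tcf7l2. Each value is taken over its whole peak, so the stages were not measured on the same stretch.

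Other differentiation genes varied more. The long noncoding RNA 9630013A20Rik was at 0 bp in OPCs and NSCs and had 1108 bp in NFOs at a fold enrichment of 3.83. Myrf, the transcription factor that switches on myelin genes, had 629 bp in OPCs at a fold enrichment of 4.22 and none in NFOs. Rras2, a Ras-family GTPase, had 1906 and 0 bp, and was the one lost gene of the list with more H3K27me3 in NFOs (598 bp) than in OPCs (295 bp). Itpr2, a calcium release channel, had 2239 and 279 bp, Fyn, a kinase that starts myelination, 1444 and 445 bp, and Cnksr3, a scaffold protein, 2200 and 717 bp. Rnf122, a ubiquitin ligase, had 2186 and 633 bp and Sirt2, a deacetylase of myelinating cells, 2103 and 1200 bp. Enpp6, Bcas1 and Nkx6-2 were at 0 bp in both stages. Over all start sites Bcas1 had 1196 bp in OPCs and 0 bp in NFOs. Nkx6-2 carried H3K27me3 over 2211 bp in OPCs and 2916 bp in NFOs.

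Myelin genes carried little of the mark in either stage. Of 24 listed genes, 5 were kept, 7 were lost, none was gained and 12 were covered in neither stage, so 7 of 12 (58.3%, 27.7 to 84.8) were lost. Their median OPC fold enrichment was 4.99, in a class in which 66.3% of all genes were lost. Mbp, which encodes myelin basic protein, had 1200 bp in OPCs and 0 bp in NFOs at its 5′-most start site and over all its start sites. Gpr37 had 1452 bp, Fa2h, which hydroxylates myelin lipids, 1141 bp, Car2, carbonic anhydrase, 890 bp, Qdpr 768 bp, Cldn11, the tight junction protein of myelin, 695 bp and Cntn2 510 bp in OPCs, all with 0 bp in NFOs. The losses at myelin genes included structural proteins and lipid enzymes alike.

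The 5 kept myelin genes were Ugt8a, Cnp, Tspan2, Nfasc and Mal. Ugt8a, which makes the galactosylceramide that the NFO antibody binds, had 2133 bp in OPCs and 958 bp in NFOs and fold enrichments of 7.94 and 8.15. Tspan2, a tetraspanin, had 1049 and 285 bp, Nfasc, an adhesion molecule of the paranode, 998 and 607 bp, and Mal, a myelin lipid raft protein, 657 and 209 bp. Mog, Mag, Mobp, Opalin, Aspa, Ermn, Trf, Apod, Gjb1 and Plekhb1 were among the 12 at 0 bp in both stages, and NSCs had none at these genes. Over all start sites, Plekhb1 had 268 bp in OPCs alone. In all, 12 myelin genes were covered in OPCs and 5 in NFOs.

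**Figure D4:**
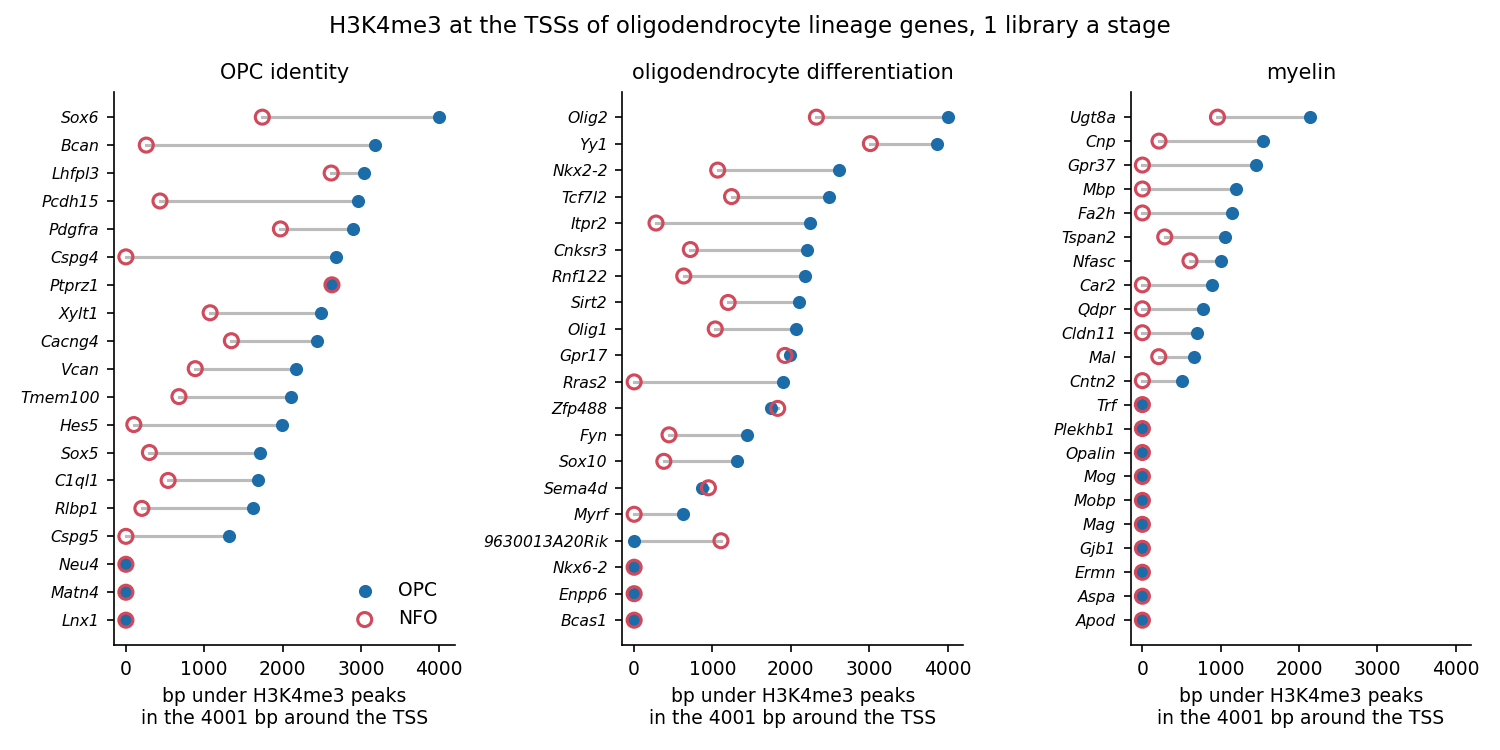
Bp under H3K4me3 peaks in the 4001 bp around the TSS (x axis) of genes of 3 lists (y axis), in OPCs (blue points) and NFOs (open red circles), 1 library a stage. Most red circles lie left of the blue points, Ptprz1, Gpr17 and Zfp488 nearly coincide within this window, beyond which the OPC peaks of Ptprz1 and Gpr17 ran on, 9630013A20Rik lies to the right, and the lowest myelin genes are at 0 in both stages.

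Among genes that brake differentiation, 15 of 20 were kept, 3 (Id1, Lingo1 and Lgr4) were lost, Bmp4 was gained and 1 was covered in neither stage. The lost genes were 16.7% (3.58 to 41.4) of the 18 covered in OPCs, beside 32.8% of all genes, and 2.44% of all genes at 0 bp in OPCs were gained. The list's median OPC fold enrichment was 8.17, in the class from 8 to 10 in which 7.04% of all genes were lost. Both 32.8% and 7.04% lay inside the interval. The largest differences were at Sox11 (3372 bp in OPCs and 675 bp in NFOs), Sox4 (2718 and 221 bp), Id2 (2837 and 752 bp) and Bmpr1a (2165 and 518 bp). Fold enrichment was higher in NFOs at 9 of the 15 kept genes, beside 30.4% of all kept genes, among them Sox11 with 9.68 and 12.3.

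All 32 genes of the cell cycle and DNA replication were covered in OPCs, and 9 of them (28.1%, 13.7 to 46.8) had no peak in NFOs. These were Mki67, Cdk1, Cdk2, Cdc20, Tk1, Rrm2, Birc5, E2f1 and Cdt1. Mki67, the proliferation antigen, had 2541 and 0 bp. Ccna2 had 3031 and 857 bp, Ccnb1 2377 and 268 bp, and Mcm4 2150 and 381 bp. The share lost stands beside 32.8% of all genes and 23.7% of those in the strength class of the list's median OPC fold enrichment of 6.73 (6 to 8), both inside its interval.

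Genes that most cells transcribe also mostly had fewer covered bp in NFOs. The exceptions with more bp were 3 of 49 kept ribosomal protein genes and 2 of 23 kept housekeeping genes. Of 54 ribosomal protein genes, all covered in OPCs and NSCs, 5 (9.26%, 3.08 to 20.3) were lost, beside 32.8% of all genes. The list's median OPC fold enrichment was 7.31, in the class from 6 to 8 in which 23.7% of all genes were lost. The lost genes included Rpl12, Rpl15, Rps14 and Rps16, although Rps14 had 357 bp in NFOs over all its start sites. Rpl15 had 2214 and 0 bp, Rpl7 3329 and 1410 bp, Rpl13 2074 and 180 bp, and Rpl24 2280 and 451 bp. Of 28 housekeeping genes covered in OPCs, 5 (17.9%, 6.06 to 36.9) were lost, beside 32.8% of all genes, a share inside the interval. So was the 23.7% of the class from 6 to 8, which held this list's median OPC fold enrichment of 7.39. The lost genes included Chmp2a, Gpi1, Rab7 and Reep5. Chmp2a had only 26 bp in OPCs, where a peak reached the edge of its window. Among the kept housekeeping genes, Actb had 2360 and 449 bp, Rer1 2975 and 730 bp, Ywhae 2742 and 1038 bp, and Ppia 1870 and 343 bp. The summed coverage in NFOs was 38.5% of that in OPCs for ribosomal protein genes and 42.5% for housekeeping genes, close to the 40.2% of OPC identity genes and the 35.9% of all genes. Whether the mark at these genes differs between dividing and postmitotic cells was not tested.

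Of 19 cholesterol synthesis genes covered in OPCs, a pathway on which myelin depends, 3 (15.8%, 3.38 to 39.6, beside 32.8% of all genes) were lost, Lss and Mvk among them, and 16 were kept. Insig1 had 2678 and 1042 bp and Cyp51 2118 and 525 bp. Of 15 immediate early genes covered in OPCs, 4 (Junb, Nr4a1, Zfp36 and Arc) were lost (26.7%, 7.79 to 55.1, beside 32.8% of all genes), although Nr4a1 had 699 bp in NFOs over all its start sites. Klf4 had 3259 and 281 bp, Ier2 2214 and 252 bp, Junb 1634 and 0 bp, and Btg2 2277 and 802 bp. Median OPC fold enrichments of the cholesterol synthesis and immediate early lists were 7.765 and 6.17. Both lay in the class from 6 to 8, in which 23.7% of all genes were lost.

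The Hox genes were the list with the most gains. Of 39 genes, 13 were kept, 5 were lost, 7 were gained and 14 were covered in neither stage, so 7 of the 21 at 0 bp in OPCs were gained, beside 2.44% of all such genes. The 5 lost genes were 27.8% (9.7 to 53.5) of the 18 covered in OPCs, beside 32.8% of all genes. The list's median OPC fold enrichment was 4.635, in the class from 4 to 5. In that class 66.3% of all genes were lost, a share above the interval. The gained genes were Hoxa2, Hoxb1, Hoxb2, Hoxb8, Hoxc6, Hoxc12 and Hoxd12, and the lost genes included Hoxa5, Hoxb7, Hoxd3 and Hoxd4. Over all start sites the order turned at Hoxb8 (458 bp in OPCs and 234 bp in NFOs) and Hoxd4 (989 and 1365 bp). Coverage was low in both directions, with 218 bp at Hoxa2, 297 bp at Hoxb1 and 188 bp at Hoxd12 in NFOs, and 934 bp at Hoxa5 in OPCs. Hoxd8 was kept with 1513 and 765 bp. The summed Hox coverage was 7943 bp in OPCs and 6605 bp in NFOs, or 83.2%, the highest ratio of any list. All 7 gained genes carried H3K27me3 in both stages, over at least 3125 bp in OPCs and 3075 bp in NFOs. Such coverage was not particular to the gained Hox genes. It was 4001 bp in both stages at Hoxa5 (lost) and Hoxa10 (neither), and 4001 and 3252 bp at Hoxb9 (kept). Neighbouring Hox genes share peaks, as Hoxd3 and Hoxd4 did, and are not independent.

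Markers of the cells that immunopanning should leave out were checked in both stages. Over all 35312 genes, 15255 were covered in OPCs and 10744 in NFOs. Of 17 microglial genes, 1 was covered in OPCs and none in NFOs, with Aif1, C1qa and C1qb at 0 bp in both. Of 16 endothelial genes, 5 were covered in OPCs and 2 in NFOs. The 3 lost genes were 60% (14.7 to 94.7) of those 5, beside 32.8% of all genes. The list's median OPC fold enrichment was 4.19, in the class from 4 to 5 in which 66.3% of all genes were lost. Flt1 had 1668 and 267 bp, and Erg (601 bp), Sox18 (508 bp) and Sox17 (448 bp) were covered in OPCs alone. Of 15 astrocyte genes, 6 were covered in OPCs and 5 in NFOs, with Sox9 at 3787 and 414 bp, F3 at 2636 and 302 bp, Slc1a2 at 2040 and 300 bp and Fgfr3 at 1822 and 304 bp, and 9 genes at 0 bp in both. Fold enrichment was higher in NFOs at these 4 of the 5 kept genes. At the other kept gene, with 2094 and 2044 bp, it was lower in NFOs (6.95 and 4.72). The 1 lost astrocyte gene was 16.7% (0.42 to 64.1) of the 6 covered in OPCs, beside 32.8% of all genes. Of 20 neuronal genes, 9 were kept, 5 (Rbfox3, Gad2, Elavl3, Reln and Syp) were lost and Slc17a6 was gained with 240 bp. Over all its start sites Slc17a6 had 198 bp in OPCs as well. The lost genes were 35.7% (12.8 to 64.9) of the 14 covered in OPCs, beside 32.8% of all genes. Their list's median OPC fold enrichment was 5.70, in the class from 5 to 6 in which 45.9% of all genes were lost. Of all genes at 0 bp in OPCs, 2.44% were gained. Among the 9 kept genes, 1 had more bp in NFOs. Nefm had 2386 and 798 bp, Reln 1431 and 0 bp, Elavl3 1327 and 0 bp, and Tubb3 1536 and 210 bp. The summed bp of each of these lists were lower in NFOs than in OPCs.

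Of 17 neural stem cell genes covered in OPCs, 7 (41.2%, 18.4 to 67.1) were lost, beside 32.8% of all genes: Nes, Prom1, Vim, Sox3, Emx2, Msi1 and Lhx2. Over all its start sites Lhx2 had 245 bp in NFOs. The list's median OPC fold enrichment was 6.71, in the class from 6 to 8 in which 23.7% of all genes were lost. Both 32.8% and 23.7% lay inside the interval. Among the 10 kept genes, 1 had more bp in NFOs. Emx2, a homeobox gene of the cortex, had 3335 and 0 bp, Sox3 3280 and 0 bp, Hmga2 3684 and 427 bp, and Nr2e1 3092 and 771 bp. Sox3 and Emx2 had OPC fold enrichments of 5.25 and 5.20, and Prom1 one of 6.71.

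**Figure D5:**
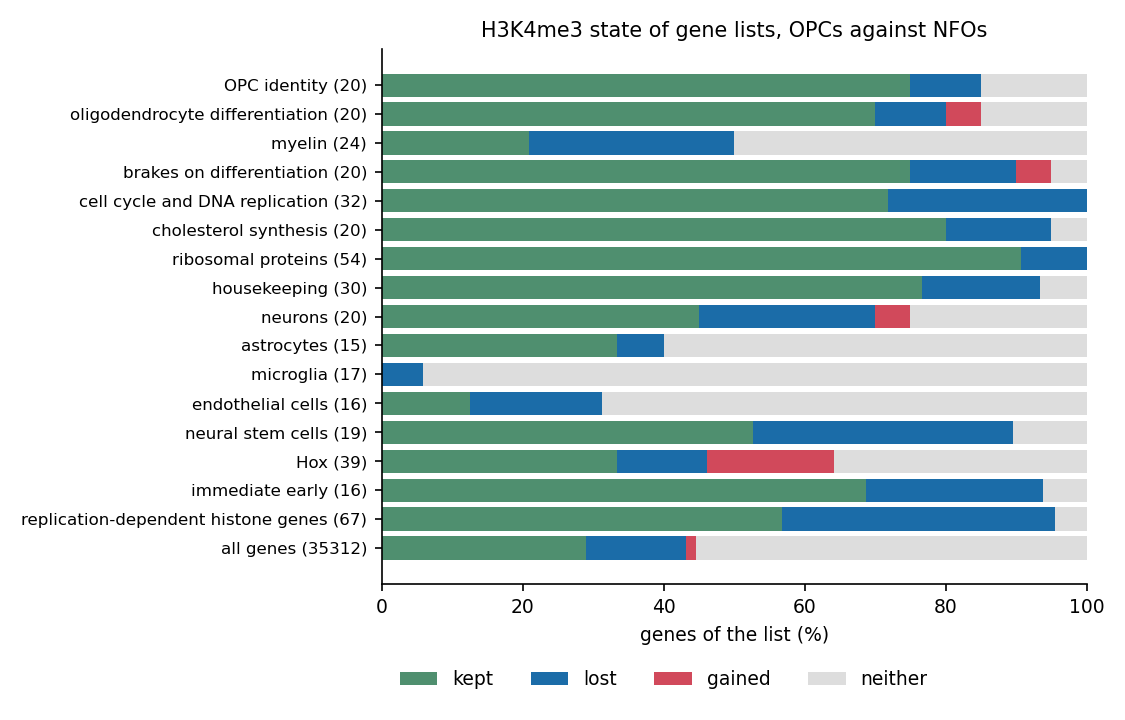
Percent of the genes of each list (x axis) that were kept, lost, gained or covered in neither stage, with the number of genes of the list in parentheses (y axis). Lost genes are 5 of 54 ribosomal protein genes and 7 of 24 myelin genes, and the Hox list has the most gained genes, 7 of 39.

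The largest ratios of fold enrichment, NFO over OPC, at kept protein-coding genes, looked up after the values were seen, were at NFO peaks between 251 and 1251 bp wide at the top 10 genes. At Larp4, with fold enrichments of 3.19 and 15.9, the strongest NFO peak (651 bp) did not overlap the strongest OPC peak (774 bp). At the others named here it lay inside a wider OPC peak. Mpped2 had a fold enrichment of 10.2 over a 2904 bp OPC peak and 54.0 over a 340 bp NFO peak. Lrfn2, a synaptic adhesion gene, had 13.3 and 49.4 with 1828 and 361 bp, and Rpl6 7.32 and 24.4 with 1661 and 251 bp. Chst11, a chondroitin sulfotransferase, had 10.3 and 33.0 with peaks of 3953 and 1251 bp. Since the value is an average over each peak, a narrow peak at a summit and a wide peak over the whole domain were not measured on the same stretch. Across the 3116 kept genes with a higher fold enrichment in NFOs, the medians were 7.95 in OPCs and 11.04 in NFOs, and the median coverage was 1664 and 517 bp.

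The other comparisons of the series put the OPC to NFO overlap in scale. For H3K27me3 between the same stages, 25.4% of 29417 OPC peaks were overlapped in NFOs and 59.6% of 12688 NFO peaks in OPCs. For H3K4me3, 82.5% of OPC peaks and 60.0% of NFO peaks were overlapped by an NSC peak, and 44.3% and 34.6% of the 33292 NSC peaks by an OPC or an NFO peak. OPC peaks were therefore overlapped more often in the NSC list, with 37.9 Mb covered, than in the NFO list, with 10.6 Mb. The share lost in NFOs on single autosomes lay between 25.9% and 37.0%, and on the X chromosome it was 44.2% (39.5 to 49.0, 195 of 441 genes). X-linked genes had a median OPC fold enrichment of 5.30, against 6.47 on autosomes. Within classes of fold enrichment the shares were closer, with 65.3% on the X and 66.4% on autosomes from 4 to 5, 41.6% and 46.0% from 5 to 6, and 28.2% and 23.6% from 6 to 8.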

How the data were processed

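Libraries of sonicated chromatin were aligned by the authors to mm10 with Bowtie2, keeping uniquely mapped reads, and broad peaks were called against input with MACS2, without blacklisted regions; versions are not given in the sources used here. The deposited peak lists give the fold enrichment of each peak, a ratio of ChIP to input signal, and its −log10 p-value and −log10 q-value (FDR). All listed peaks were used. The authors' filter (FDR below 0.05, fold enrichment above 3.5), which 94.6% of OPC and 73.2% of NFO peaks met, was run as an alternative. OLIG2 lists, called by the authors with SPP, hold a signal ratio and −log10 FDR.

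Peaks sharing at least 1 bp were counted as overlapping. Covered bp were summed in a window of 2 kb on either side of the 5′ end of each protein-coding gene and long noncoding RNA of GENCODE M21. A gene was lost when covered in OPCs and at 0 bp in NFOs, and gained in the opposite case. The 0 means no listed peak, not absence of the mark. Intervals for shares are exact binomial (Clopper-Pearson, 95%, SciPy 1.17.1), and those of medians are from order statistics. Peaks and genes of 1 library are not replicates, so no test between stages was made. Sequence came from GRCm38.p6. The genes named were the 10 largest losses and gains among protein-coding genes, all genes of 3 lineage lists, up to 4 genes with the largest change in the other lists with all their lost or gained genes, and 6 regulators of the lineage. The comparison, the members and the 15 gene lists were chosen with earlier results of these data known, and the histone and X chromosome genes and the genes with the largest ratios of fold enrichment were chosen after the values were seen. Some genes that the rule names are not reported here.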

Additional observations from a re-analysis of the deposited data

How the results depend on the processing

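The peak lists gave no read counts, so what the depth of each library limits could not be set in reads, and a peak missing in NFOs may lie below the caller's threshold. Losses outnumbered gains under all 9 alternatives to the genes' counting, including 1 added after seeing the data (peaks of at least 250 bp), with a ratio between 9.49 and 62.4, and the median change of covered bp was negative under all 8 that gave one. Not all of these could have gone the other way. Equal numbers removed NFO peaks alone, and joining peaks left both gene counts unchanged. The minimum of 250 bp removed 48.6% of NFO peaks and 16.5% of OPC peaks, and most gained genes fell below the minimum of 500 bp. The range of ratios therefore does not measure how firm the excess of losses is. The share of OPC peaks overlapped in NFOs was 52.5% with the filter of the authors' Methods, 42.5% above a fold enrichment of 5, 54.4% with equal numbers of peaks, 26.3% when at least 50% of the peak had to be covered and 49.95% with peaks of at least 250 bp. In the same order the share of NFO peaks overlapped in OPCs was 63.5%, 71.9%, 60.8%, 51.1% and 74.0%, and it was 52.5% when peaks within 1 kb were joined. The share of OPC bp recovered was 29.6% with the filter, 20.3% above 5, 31.4% with equal numbers, 34.6% with joined peaks and 30.1% with peaks of at least 250 bp. Gained genes numbered 316 above a fold enrichment of 5, 281 among protein-coding genes alone, 64 with at least 500 bp covered and 205 with peaks of at least 250 bp, and lost genes between 3992 and 7156. Of the genes gained above 5, 99 were also gained with all peaks, and of the 342 gained with the filter 304 were. Of the 7156 genes lost above 5, 2879 were also lost with all peaks. The median change was -936 bp above 5, -742 bp with joined peaks, -663 bp with a 1 kb window, -875 bp with the TSSs of all transcripts and -782 bp with peaks of at least 250 bp. The cause of these differences was not tested. No paired analysis was possible because each stage has 1 library and no test between stages was made.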
